A study of Rattus norvegicus with 12 samples.

Results

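The genes described here are steps of cholesterol synthesis and the regulators that set its rate, measured in rat lung. Of 8 genes chosen by name, 7 carried a probe set under that symbol in the annotation of the array, with 11 probe sets in all, out of 14217 genes and 31042 probe sets in the series. They are Idi1, Fdps, Sqle, Lss and Cyp51, which encode enzymes, and Srebf2 and Insig1, which encode regulators. Hmgcs1 was not analysed here. None of the 7 encodes a lipoprotein receptor, so uptake was read only from other genes of the pathway. Lung RNA of male wild type Sprague Dawley rats weighing 250 to 350 g was hybridised to 12 Affymetrix arrays, 3 in each of 4 groups. In the BD/SEW group brain death was brought about with a balloon catheter outside the dura, and SEW-2871 was injected intravenously at 0.1 mg/kg 15 min later. The BD group had brain death alone, the SEW group had the injection of 0.1 mg/kg alone, and the sham group had neither. SEW-2871 is an agonist of the sphingosine 1-phosphate receptor S1P1. It is not stated whether rats given only SEW-2871 were also sham operated, when the lungs were taken, or that the arrays of a group came from separate animals, so p-values measure the spread between samples.

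Cholesterol is built from acetyl-CoA by way of mevalonate, isoprenoids, squalene and lanosterol. When sterol in the endoplasmic reticulum is low, the transcription factor SREBP-2, which Srebf2 encodes, is carried to the Golgi, cut free and switches on nearly every enzyme gene of the pathway, whereas INSIG proteins hold it back when sterol is plentiful. In the lung, alveolar type 2 cells use cholesterol as a component of surfactant, and macrophages take up and export it.

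Only 1 of the 42 results, 7 genes in each of 6 comparisons, passed an adjusted p under 0.05 (limma over all 14217 genes with Benjamini-Hochberg adjustment, as for every adjusted p given here). Lss, which encodes lanosterol synthase, the enzyme that folds squalene epoxide into the first sterol, rose 1.56-fold in BD/SEW lungs against SEW lungs. In that comparison 1 of 7 genes was called, against 9.79% of all genes. Brain death alone gave 0 of 7 calls relative to sham (background 0.591%), and the agonist alone also gave 0 of 7 (5.84%). With the agonist added to brain death, 0 of 7 were called relative to BD (0.0141%) and 0 of 7 relative to sham (2.87%). For the interaction, which is the difference of BD/SEW from SEW minus that of BD from sham, 0 of 7 were called (0.95%). At an unadjusted p under 0.05, BD differed from sham in 1 of 7 genes (11% of all genes) and SEW differed from sham in 2 (25.6%). At that level BD/SEW differed from BD in 1 (5.44%), from SEW in 1 (23.8%) and from sham in 0 (17.5%), and the interaction passed in 1 (12.5%). The same arrays enter several comparisons, so these results are not independent of each other.

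**Figure D1:**
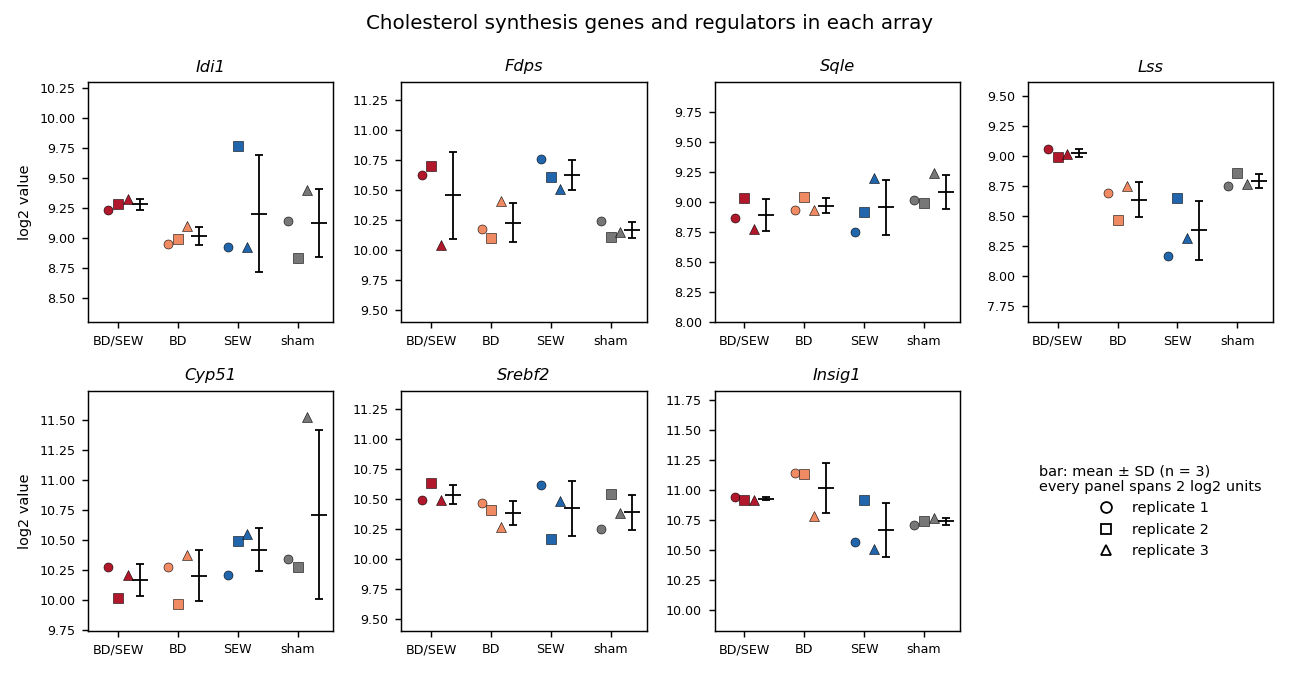
Log2 values of the 7 genes in the BD/SEW, BD, SEW and sham arrays, 1 point per array with the marker shape giving the replicate number, and bars for mean ± SD (n = 3). The BD/SEW points of Lss lie above the points of every other group, Cyp51 is high in sham replicate 3, and Idi1 is high in SEW replicate 2.

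The arrays differed in cardiac muscle and adipose markers and in stress transcripts. Fits with the cardiac or adipose marker mean as a covariate, or without the array concerned, are given below. They stand beside the results where they ended a call and beside some others. The mean of 17 cardiac muscle markers lay at 11.5 in BD replicate 2 and at 9.54 to 10.5 in the sham group, with the remaining 8 arrays at 5.76 to 8.15. The mean of 11 adipose markers was likewise highest there, at 9.30 in BD replicate 2 and 8.73 to 9.75 in sham, and 6.83 to 7.62 elsewhere. Both means were thus higher in every sham array than in every SEW and BD/SEW array. A fit with either covariate can hardly separate these tissues from a difference of SEW or BD/SEW from sham. A call lost in such a fit was therefore not traced to these tissues. Between SEW and BD/SEW the group means lay close, at 6.59 and 6.84 for cardiac and 7.39 and 7.24 for adipose markers. A call kept between these groups was therefore little tested by such a fit. The 6 measured heat shock genes averaged 13.4 in SEW replicate 2 and 10.8 to 11.5 in the other arrays. The lung label held in all 12 arrays, with the surfactant gene Sftpc between 14.32 and 14.67. Airway markers were less even. The mean of 7 airway epithelium markers was 11.85 to 12.18 in sham and 9.94 to 11.82 in BD. It was 8.74 to 10.99 in SEW and 9.69 to 10.24 in BD/SEW. Of these markers 2 fell in SEW and 2 in BD/SEW relative to sham. The airway mean was not fitted as a covariate, and its part in the differences from sham was not tested. The mean of the 7 cholesterol genes moved far less, between 9.71 and 10.03 over the 12 arrays. This was not particular to them, as the mean of 7 uptake and transport genes ran from 10.14 to 10.45. Cyp51 alone ran from 9.96 to 11.52. In whole lung, fewer cells of a type and less RNA per cell cannot be told apart.

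**Figure D2:**
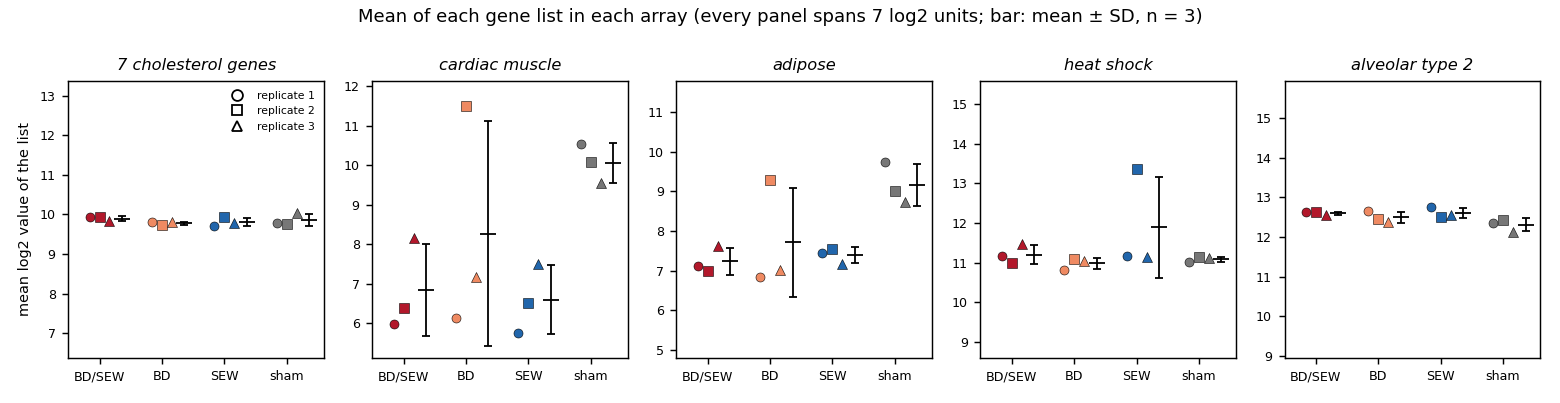
Mean log2 value of the 7 cholesterol genes and of 4 marker lists in each array, with every panel drawn over the same span and bars for mean ± SD (n = 3). The cardiac and adipose means are high in BD replicate 2 and the sham group, the heat shock mean is high in SEW replicate 2, and the mean of the cholesterol genes stays between 9.71 and 10.03.

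Idi1 encodes isopentenyl diphosphate isomerase, which balances the isoprenoid building blocks made from mevalonate. Its log2 values were 9.23, 9.28 and 9.32 in BD/SEW, 8.95, 8.99 and 9.10 in BD, 8.92, 9.76 and 8.92 in SEW, and 9.14, 8.83 and 9.40 in sham (replicates 1 to 3, here and below). The BD/SEW arrays lay above the BD arrays without overlap, as 12.4% of all genes did in either direction, and SEW replicate 2 stood above every other array. The difference of BD/SEW from BD was 0.26 ± 0.21 on the log2 scale (± SE, 3 arrays a group; limma adjusted p = 0.961), with a 95% confidence interval from -0.19 to 0.72. A second, dimmer Idi1 probe set had its highest value, 9.35, in sham replicate 3, and its SEW replicate 2 value was 8.78. SEW replicate 2 is the array with high heat shock genes, and without it Idi1 differed by 0.36 in BD/SEW against SEW (0.077 with it) and by -0.20 in SEW against sham (0.077 with it), with adjusted p of 0.183 and 0.443.

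Fdps encodes farnesyl diphosphate synthase, whose product is the branch point to sterols, ubiquinone and prenylated proteins. It was 10.63, 10.70 and 10.04 in BD/SEW, 10.18, 10.10 and 10.41 in BD, 10.76, 10.61 and 10.51 in SEW, and 10.24, 10.11 and 10.15 in sham. All 3 SEW arrays were above all 3 sham arrays, as 27.1% of all genes were apart in either direction, while BD/SEW spread over both levels. In SEW against sham the difference was 0.46 ± 0.16 (95% interval 0.11 to 0.81, adjusted p = 0.104). Of its 26 alternatives it passed in 1, without BD/SEW replicate 3, an array outside this difference (adjusted p = 0.0436). With the cardiac or the adipose covariate it was 0.21 or 0.29 (adjusted p = 0.684 and 0.558).

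Sqle encodes squalene epoxidase, an oxygen-requiring and often rate-limiting step. Its values were 8.86, 9.03 and 8.77 in BD/SEW, 8.93, 9.04 and 8.93 in BD, 8.75, 8.91 and 9.20 in SEW, and 9.01, 8.99 and 9.24 in sham. The groups overlapped in every comparison. The largest difference was -0.19 ± 0.13 in BD/SEW against sham (adjusted p = 0.489), and its 95% interval ran from -0.48 to 0.09.

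Lss was the gene with the clearest separation. It was 9.06, 8.99 and 9.02 in BD/SEW, 8.69, 8.47 and 8.75 in BD, 8.17, 8.65 and 8.32 in SEW, and 8.75, 8.86 and 8.77 in sham. The BD/SEW arrays were the highest 3 of the 12 and did not overlap with SEW, as was so for 31.8% of all genes in either direction. The SEW arrays lay below the sham arrays, with BD replicate 2 below SEW replicate 2. In BD/SEW against SEW it rose by 0.64 ± 0.13 (95% interval 0.36 to 0.92, adjusted p = 0.0086). This call was made under all 26 alternatives, with changes from 0.48 to 0.78 and adjusted p from 0.000516 to 0.0398. The Lss difference already met the stricter thresholds among them in the main fit. It was 0.65 with the cardiac marker mean as a covariate (adjusted p = 0.0106) and 0.78 without SEW replicate 2 (adjusted p = 0.00187), the array with high heat shock genes. Of 6 neutrophil markers 3 rose in the same comparison, where 9.79% of all genes were called. In it 1 of 5 macrophage and monocyte markers and 1 of 9 alveolar type 2 markers also rose, and 1 of 7 endothelium markers fell. The mean of the neutrophil markers was 11.3 to 11.8 in BD/SEW, against 8.82 to 10.8 in SEW. The part of these cells in the Lss result, and in the other calls of this comparison given below, was not tested.

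The other Lss differences did not pass. BD/SEW against BD gave 0.39 ± 0.13 without overlap (95% interval 0.11 to 0.67, adjusted p = 0.813), and BD/SEW against sham gave 0.23 ± 0.13 without overlap (adjusted p = 0.394). The share of all genes without overlap was 12.4% in the first of these and 25.9% in the second. SEW against sham gave -0.41 ± 0.13 (95% interval -0.69 to -0.13, adjusted p = 0.0768), and BD against sham -0.16 ± 0.13 (adjusted p = 0.737). The interaction, which tests whether the brain death difference depended on the agonist, was 0.80 ± 0.18 (95% interval 0.40 to 1.20, adjusted p = 0.0709). Without SEW replicate 2, SEW against sham was -0.55 (adjusted p = 0.0276) and the interaction 0.94 (adjusted p = 0.0111), so both passed there.

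Both Lss probe sets were set side by side because only the brighter one represented the gene in the fit. The dimmer one had 7.96, 7.84 and 7.88 in BD/SEW, 7.70, 7.88 and 7.87 in BD, 7.58, 7.75 and 7.38 in SEW, and 7.88, 7.89 and 7.78 in sham. Its SEW arrays also lay below the BD/SEW arrays and the sham arrays, but its BD/SEW arrays overlapped with BD and sham. In BD/SEW against SEW it differed by 0.32 ± 0.11 and did not pass (adjusted p = 0.124 over every probe set). The low SEW values were thus seen with both probe sets and the high BD/SEW values with the brighter one.

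**Figure D3:**
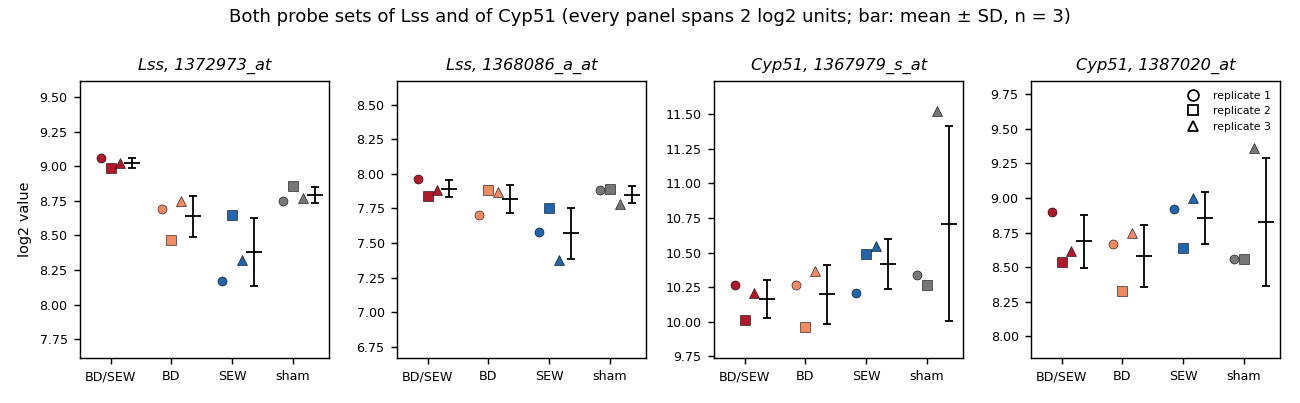
Log2 values of both probe sets of Lss and of Cyp51 in each array, in panels of equal span, with bars for mean ± SD (n = 3). Both Lss probe sets are lower in SEW than in BD/SEW, and both Cyp51 probe sets are highest in sham replicate 3.

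Cyp51 encodes lanosterol demethylase, the cytochrome P450 that acts just after Lss. Its values were 10.27, 10.01 and 10.21 in BD/SEW, 10.27, 9.96 and 10.37 in BD, 10.21, 10.49 and 10.55 in SEW, and 10.34, 10.27 and 11.52 in sham. Sham replicate 3 stood alone above the other 11 arrays, and the second probe set had its highest value, 9.36, in the same array. BD/SEW against sham was -0.55 ± 0.27 (95% interval -1.14 to 0.05, adjusted p = 0.329) and BD against sham -0.51 ± 0.27 (adjusted p = 0.54). Without sham replicate 3 these were -0.14 and -0.11. With the adipose covariate they were -0.98 and -0.84 (adjusted p = 0.484 and 0.437). This array also had the lowest weight when arrays were weighted by their fit, 0.247, with SEW replicate 2 next at 0.318.

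Srebf2, the gene of the transcription factor itself, was 10.49, 10.63 and 10.49 in BD/SEW, 10.47, 10.41 and 10.27 in BD, 10.62, 10.17 and 10.48 in SEW, and 10.25, 10.54 and 10.38 in sham. BD/SEW lay just above BD without overlap, as 12.4% of all genes were apart in either direction. The difference was 0.15 ± 0.12 (95% interval -0.12 to 0.43, adjusted p = 0.962). The gene's messenger does not report the cleavage that activates SREBP-2. Its second probe set stayed between 4.76 and 5.06, under the arrays' lower quartiles of 5.56 to 5.66, and did not follow the first over the 12 arrays (Pearson r = -0.0273).

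Insig1 encodes the sterol-sensing anchor of the SREBP pathway and is itself an SREBP target. It was 10.94, 10.92 and 10.92 in BD/SEW, 11.14, 11.13 and 10.78 in BD, 10.57, 10.92 and 10.51 in SEW, and 10.71, 10.74 and 10.77 in sham. All BD and BD/SEW arrays were above all sham arrays, whereas SEW fell on both sides of sham. Of all genes, 15.7% did not overlap in either direction in BD against sham and 25.9% in BD/SEW against sham. The difference was 0.28 ± 0.12 in BD against sham (95% interval 0.01 to 0.55, adjusted p = 0.439), 0.19 ± 0.12 in BD/SEW against sham (adjusted p = 0.48), and 0.26 ± 0.12 in BD/SEW against SEW (adjusted p = 0.228). The last passed with array weights, at 0.35 (adjusted p = 0.0231), and at 0.39 with BD replicate 2, SEW replicate 2 and sham replicate 3 left out together (adjusted p = 0.044).

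**Figure D4:**
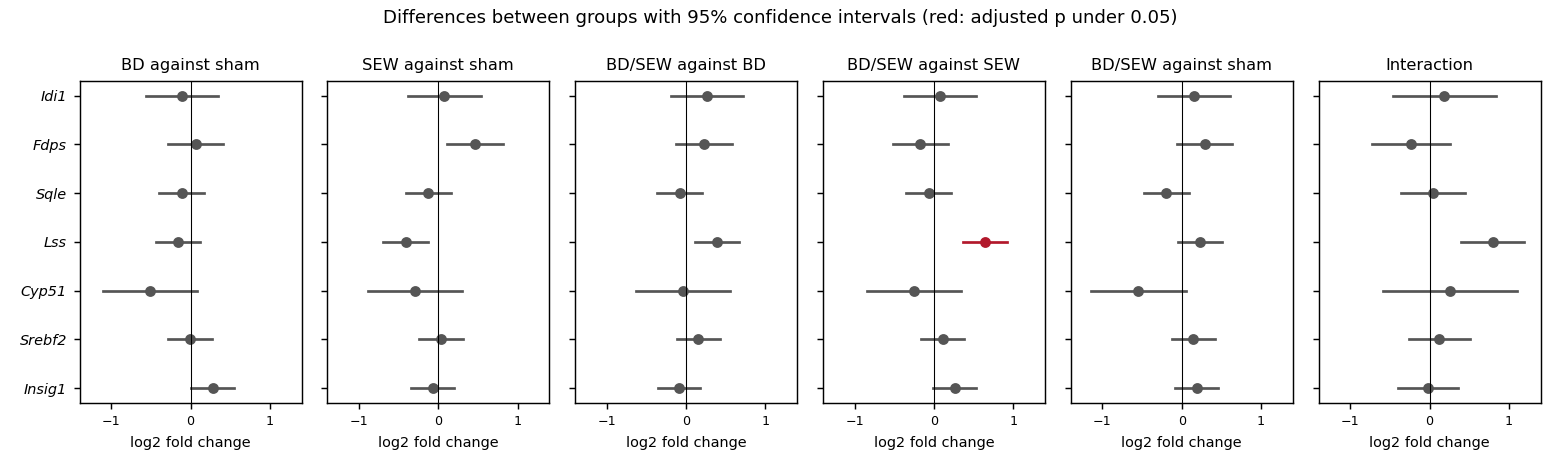
Log2 fold change of each of the 7 genes in the 6 comparisons, first-named group minus second, with 95% confidence intervals and red for an adjusted p under 0.05. Only Lss in BD/SEW against SEW is red, at 0.64.

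The precision set by 3 arrays a group bounds what could have been missed. The 95% intervals of the 7 genes lay within 1 log2 unit of 0 for 7 of 7 genes when SEW was set against sham or BD/SEW against BD, and for the 6 genes not called between BD/SEW and SEW. Of the 7 genes 6 did so for BD and for BD/SEW relative to sham, Cyp51 being the exception, and for the interaction 5 of 7 did. A p that misses the threshold does not show that the groups were alike. Relative to sham, the median difference of the 7 genes was 0.15 in BD/SEW (0.01 over all genes), -0.11 in BD (0.0033) and -0.073 in SEW (0.017). The median for BD/SEW was 0.15 relative to BD (0.0067 over all genes) and 0.077 relative to SEW (-0.0067), and that of the interaction was 0.12 (-0.02).

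The 7 genes did not vary together over the arrays. As a description over 12 arrays that share their groups, 7 of 21 pairs had a Pearson r above 0, the range was -0.52 (Idi1 with Srebf2) to 0.57 (Sqle with Cyp51), and the median was -0.097. The highest correlation of a gene with the mean of the other 6 was that of Idi1 (0.49), and the lowest that of Srebf2 (-0.36). Among the 14217 genes, those most like the mean of the 7 over the 12 arrays were Cenpl (r = 0.89), Galnt3 (0.84), Arhgap42 (0.84), Jhy (0.84), Apbb2 (0.84), Fam167b (0.83), Rhpn1 (0.83), Psph (0.83), Ncoa5 (0.83) and Fastkd5 (0.82). None of these 10 is in the lists of pathway genes. The mean of the 7, each centred on its own average, was highest in sham replicate 3 at 0.20, where Cyp51 was 1.15 above its average.

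The proximal promoters of the genes are shown for Lss, the one gene called, beside Fdps and Insig1, an earlier enzyme and a regulator that were not called. They are the 250 bases before and 50 after the RefSeq start in rat build GRCr8, at chr20:12118181-12118480 for Lss (minus strand), chr2:176804767-176805066 for Fdps (minus strand) and chr4:8057720-8058019 for Insig1 (minus strand), written 5′ to 3′ on the gene's strand. Capitals mark CCAAT or its reverse complement ATTGG, the box of NF-Y, a factor known to act beside SREBP.
Lss: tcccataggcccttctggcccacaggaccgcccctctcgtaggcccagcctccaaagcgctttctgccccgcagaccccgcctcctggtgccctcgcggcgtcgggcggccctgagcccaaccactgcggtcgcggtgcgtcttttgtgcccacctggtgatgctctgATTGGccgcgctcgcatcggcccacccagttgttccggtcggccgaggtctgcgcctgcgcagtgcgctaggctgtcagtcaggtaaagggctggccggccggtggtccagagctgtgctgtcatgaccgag
Fdps: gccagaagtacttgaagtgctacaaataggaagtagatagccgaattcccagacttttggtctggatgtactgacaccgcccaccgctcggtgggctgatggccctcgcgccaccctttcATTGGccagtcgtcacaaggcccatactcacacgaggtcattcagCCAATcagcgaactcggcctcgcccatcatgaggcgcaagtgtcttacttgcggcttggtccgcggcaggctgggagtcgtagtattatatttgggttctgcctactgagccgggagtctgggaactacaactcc
Insig1: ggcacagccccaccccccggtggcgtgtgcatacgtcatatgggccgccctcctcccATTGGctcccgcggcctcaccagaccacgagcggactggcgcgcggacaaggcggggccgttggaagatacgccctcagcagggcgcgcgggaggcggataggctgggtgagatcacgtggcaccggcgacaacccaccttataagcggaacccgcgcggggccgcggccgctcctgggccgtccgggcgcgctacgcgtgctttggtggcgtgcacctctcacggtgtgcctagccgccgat
Of the 6 genes with an entry (Sqle has none), 5 held this box, with 1 each in Lss, Srebf2 and Insig1 and 2 each in Idi1 and Fdps, and none in Cyp51. Of 33469 promoters of the same length, 37.5% held it on either strand. The sterol regulatory element written as TCACNCCAC was found in 0 of the 6 and in 1.12% of all promoters, and its E-box form TCACNTGA in 0 of the 6 and in 3.93% of all. The 3 motifs were searched on both strands, and the printed matches are all of the NF-Y box. Only these exact letters were sought. Elements that differ from them were not counted, so the search does not show that the promoters lack a sterol regulatory element. Lss, Insig1 and Srebf2 each held 1 box, so its count in this window did not set Lss apart.

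Other genes of the pathway were read from 7 lists with 57 genes, of which 50 were measured. None rose or fell in BD relative to sham, in BD/SEW relative to BD, or in the interaction. There 10, 1 and 8 of 50 had an unadjusted p under 0.05 in limma's test. The shares over all genes were 11%, 5.44% and 12.5%. In SEW lungs 2 of 50 rose and 3 fell relative to sham, where 5.84% of all genes were called. In BD/SEW lungs 1 of 50 rose and 3 fell relative to SEW, where the share over all genes was 9.79%, and 1 rose and 2 fell relative to sham, where it was 2.87%. Of the 4 further genes from acetyl-CoA to farnesyl diphosphate and the 9 from squalene to cholesterol, 0 were called in each of the 6 comparisons. The largest differences were those of Lbr, which encodes a sterol reductase of the nuclear membrane (-0.71 ± 0.59 for the interaction, adjusted p = 0.67; -0.13 without sham replicate 3, whose value was 6.85), and Pmvk, phosphomevalonate kinase (-0.67 ± 0.21 in BD/SEW against SEW, adjusted p = 0.0737). Sc5d, which encodes lathosterol desaturase, differed by -0.51 ± 0.13 in BD against sham (adjusted p = 0.125). Without SEW replicate 2 these differences of Pmvk and Sc5d passed, at -0.88 and -0.51 (adjusted p = 0.0248 and 0.0252). That array lies outside the Sc5d difference, which stayed the same. Neither passed in any other fit that left out 1 array. In BD/SEW against SEW the median of those 9 was -0.24, with 7 below 0, as were 7272 of all 14217 genes. Lss lay on the other side of 0 from most of those 9, none of which was called.

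Of 7 measured genes of uptake and transport, Stard4 and Scarb1 were called. Stard4, which encodes a carrier of cholesterol between membranes and is known as an SREBP-2 target, was 9.03, 8.99 and 8.95 in BD/SEW, 9.40, 9.06 and 9.46 in BD, 10.36, 9.78 and 10.27 in SEW, and 10.03, 10.07 and 10.74 in sham. All 6 arrays with brain death lay below all 6 without it. The share of all genes split in this way was not counted. Between pairs of groups, 15.7% did not overlap in BD against sham, in either direction. It was 31.8% in BD/SEW against SEW and 25.9% in BD/SEW against sham. Stard4 fell by 1.15 ± 0.20 in BD/SEW against SEW (adjusted p = 0.00428) and fell by 1.29 ± 0.20 in BD/SEW against sham (adjusted p = 0.00803), and BD against sham was -0.97 ± 0.20 (adjusted p = 0.0647). Both calls were made in all 6 fits that left out a compared array. With the cardiac or the adipose covariate the call against SEW was kept (-1.13 and -1.18) and that against sham was lost (-1.54 and -1.70, adjusted p = 0.0629 and 0.0715). The 2 dimmer Stard4 probe sets differed less, by -0.087 and -0.19 in BD/SEW against SEW, and with the mean of all probe sets the change was -0.48 (adjusted p = 0.0777).

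Scarb1 encodes SR-BI, which takes up cholesterol from high density lipoprotein. It was 10.28, 10.45 and 9.97 in BD/SEW, 9.98, 10.09 and 9.86 in BD, 9.15, 9.53 and 8.93 in SEW, and 9.36, 9.74 and 8.90 in sham. The arrays with brain death lay above those without it, with the lowest at 9.86 and the highest without it at 9.74. The share of all genes split in this way was not counted. Scarb1 rose by 1.03 ± 0.21 in BD/SEW against SEW (adjusted p = 0.0102; 0.92 and adjusted p = 0.0512 without BD/SEW replicate 2) and by 0.90 ± 0.21 in BD/SEW against sham (adjusted p = 0.048), where 1 of 6 fits leaving out a compared array kept the call. The call against sham was also lost with the cardiac or the adipose covariate (0.90 and 1.05, adjusted p = 0.396 and 0.388), whereas that against SEW was kept (1.03 and 1.04). With the mean of its probe sets neither passed (0.92 against SEW and 1.03 against sham, adjusted p = 0.0894 and 0.107). BD against sham was 0.64 ± 0.21 (adjusted p = 0.254). The other 5 measured genes of uptake and transport, Mylip, Vldlr, Lipa, Npc2 and Stard3, were called in no comparison.

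Among 7 further genes of sterol sensing, 1 rose in SEW against sham and 1 fell in BD/SEW against SEW. Both calls were of Erlin1, which encodes a membrane protein of the endoplasmic reticulum that restrains SREBP activation. It was 9.85, 9.89 and 9.71 in BD/SEW, 9.67, 9.63 and 9.77 in BD, 10.58, 10.90 and 10.40 in SEW, and 9.91, 10.11 and 9.96 in sham, so that the SEW arrays were the highest 3. Of all genes, 27.1% did not overlap in SEW against sham and 31.8% in BD/SEW against SEW, in either direction. Erlin1 fell by 0.81 ± 0.12 in BD/SEW against SEW (adjusted p = 0.00198, called under all 26 alternatives). In SEW against sham it rose by 0.63 ± 0.12 (adjusted p = 0.0186), with 0.59 and 0.62 and adjusted p of 0.0557 and 0.0526 without sham replicate 1 or 3. With the cardiac covariate that change was 0.52 and did not pass (adjusted p = 0.285).

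**Figure D5:**
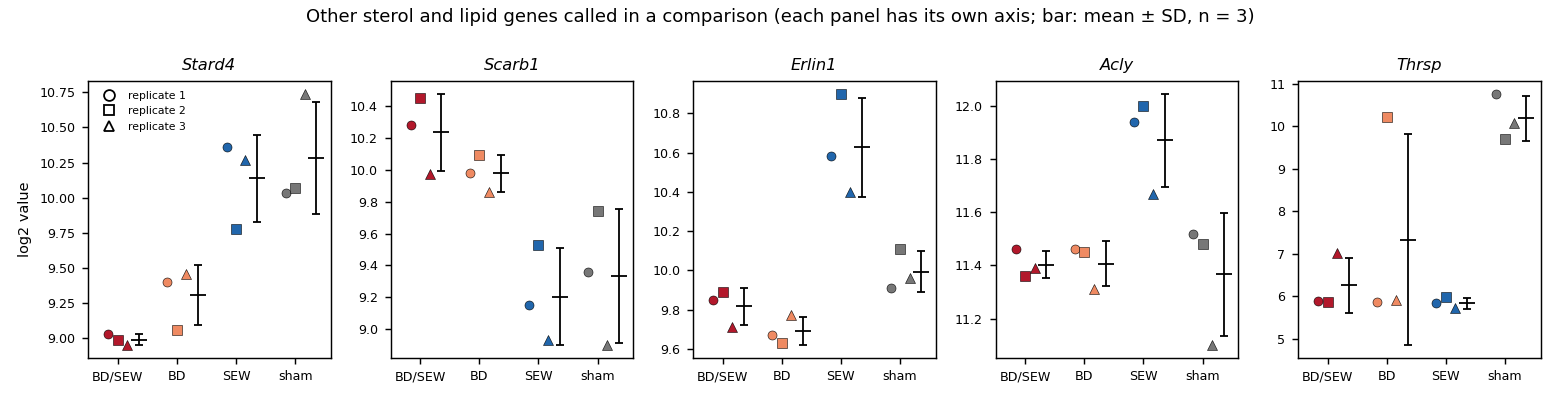
Log2 values of 5 other sterol and lipid genes that were called in a comparison, in each array, each panel with its own axis and bars for mean ± SD (n = 3). Stard4 is lower and Scarb1 higher in all arrays with brain death, Erlin1 is highest in SEW, and Thrsp is high in BD replicate 2 and the sham group.

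Fatty acid synthesis, which the related factor SREBP-1 controls, gave 1 gene that rose and 3 that fell of 10 in SEW against sham. Acly, which makes cytosolic acetyl-CoA for both fatty acids and sterols, was 11.46, 11.36 and 11.39 in BD/SEW, 11.46, 11.45 and 11.31 in BD, 11.94, 12.00 and 11.67 in SEW, and 11.52, 11.48 and 11.10 in sham. Its SEW arrays were the highest 3, where 27.1% of all genes were apart in SEW against sham and 31.8% in BD/SEW against SEW. It rose by 0.50 ± 0.12 in SEW against sham (adjusted p = 0.0395) and fell by 0.47 ± 0.12 in BD/SEW against SEW (adjusted p = 0.0336), calls made in 2 and 1 of the 6 fits that left out a compared array. The call against sham was lost with the cardiac or the adipose covariate (0.51 and 0.64, adjusted p = 0.303 and 0.181). Thrsp, a lipogenic gene of fat tissue, was 5.88, 5.87 and 7.01 in BD/SEW, 5.87, 10.21 and 5.92 in BD, 5.83, 5.97 and 5.71 in SEW, and 10.77, 9.71 and 10.08 in sham. It fell by 4.35 ± 0.90 in SEW against sham (adjusted p = 0.0223) and by 3.93 ± 0.90 in BD/SEW against sham (adjusted p = 0.044), calls made in 2 and 0 of the 6 fits that left out a compared array. The arrays with high Thrsp were those with high adipose and cardiac markers. Acss2 fell by 0.68 ± 0.17 (adjusted p = 0.0413) and Elovl6 fell by 0.69 ± 0.18 (adjusted p = 0.0437) in SEW against sham, and each was called in 0 of 6 fits that left out a compared array. With the adipose covariate none of the 3 falls in SEW against sham passed (changes of -1.37, -0.27 and -0.25 for Thrsp, Acss2 and Elovl6), nor did that of Thrsp in BD/SEW against sham (-0.70, adjusted p = 0.616).

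Genes of cholesterol efflux, storage and oxysterols were called in no comparison. Ch25h, which makes 25-hydroxycholesterol, differed by 0.81 ± 0.28 in BD/SEW against SEW (adjusted p = 0.0941) and by -0.83 ± 0.28 in BD against sham (adjusted p = 0.256), and its interaction was 1.64 ± 0.39 (adjusted p = 0.0852). Its SEW values were 8.83, 9.89 and 8.47, the high one again in replicate 2. Without that array all 3 passed, at 1.22, -0.83 and 2.05 (adjusted p = 0.000718, 0.0212 and 0.000651), and without SEW replicate 3 the first was 0.51 (adjusted p = 0.266). SEW replicate 2 lies outside BD against sham, where the difference was -0.83 with it as well. Cyp27a1, the sterol 27-hydroxylase, differed by 1.01 ± 0.33 in BD/SEW against SEW (adjusted p = 0.0768; 0.0249 without sham replicate 2, an array outside it) and by 0.92 ± 0.33 in BD against sham (adjusted p = 0.301). Of the 5 measured genes of other isoprenoid branches 0 were called, and the largest difference was that of Fntb, a farnesyltransferase subunit, at -1.58 ± 0.52 in BD/SEW against SEW (adjusted p = 0.0833). Its values were 8.41, 8.42 and 8.54 in BD/SEW and 8.99, 11.76 and 9.37 in SEW, with SEW replicate 2, the array with high heat shock genes, far above the rest. Without it the difference was -0.72 and passed (adjusted p = 0.00998), and without SEW replicate 1 it was -2.11 (adjusted p = 0.0237).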

How the data were processed

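Lung RNA (6 ug per array, biotin-labelled) was measured on 12 Affymetrix arrays. Values on the log2 scale, rounded to 2 decimals, were deposited by the authors for each probe set. The submitters' processing notes name RMA, MAS5 and affy, whose roles and versions are not given in the sources used here, and background correction and normalization could not be repeated. Medians of the 12 arrays ran from 7.34 to 7.41. Precision is limited by the number of arrays.

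Symbols came from the array's annotation table, updated through the RefSeq gene table of GRCr8 (20758 of 20826 probe sets with 1 symbol matched; 436 had several and 9780 none). A gene took its probe set with the highest mean. Groups followed the sample titles. A mean per group was fitted over all 12 arrays with limma 3.58.1 in R 4.3.3, with a mean trend, two-sided tests and Benjamini-Hochberg adjustment over 14217 genes. The fit was tested on simulated data. The genes named are the members and, from the pathway lists, those called or with a list's largest change, plus the 10 genes most correlated with the members' mean. Members and lists were chosen with earlier results of these data known. Alternatives changed the arrays fitted, weights, probe set choice, dim-gene filter, normalization, variance trend, thresholds, replicate block and cardiac or adipose covariates. No batch is given in the labels. Promoters came from RefSeq.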

Additional observations from a re-analysis of the deposited data

How the results depend on the processing

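The 7 genes were refitted under 26 alternatives (25 for the interaction, which needs all 4 groups), giving 1085 values. Of these 1076 kept their side of the threshold with no called value changing sign, and 9 newly passed. The 1076 include values whose side could not or could hardly change. The stricter thresholds, an adjusted p under 0.01 and a change of at least 1.5-fold, reused the main fit and could not add a call. Leaving out an array outside a pair of groups left their difference as it was. Only its spread and adjusted p could then change. With array weights the number of genes called was 1 in SEW against sham (Lss), 2 in BD/SEW against SEW (Lss and Insig1) and 1 for the interaction (Lss). With BD replicate 2, SEW replicate 2 and sham replicate 3 left out together it was also 1, 2 and 1, for the same genes. Over the 12 fits that each left out 1 array, the count ranged from 0 to 1 in SEW against sham and for the interaction, was 1 throughout in BD/SEW against SEW, and 0 throughout in the other 3 comparisons. The cause of these shifts was not tested.

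Replicate numbers are shared by the groups but the labels tie them to nothing. Same-numbered arrays of different groups had deviations that correlated between -0.19 and 0.38, above 0.1 in 8 of 18 pairs, so the numbers were not taken to pair the samples. With the replicate block the number of the 7 genes called stayed at 1 in BD/SEW against SEW and 0 in the other comparisons, and Lss was 0.64 (adjusted p = 0.016). Elovl6 in SEW against sham and Thrsp in BD/SEW against sham did not pass with the block (adjusted p = 0.0519 and 0.0522).

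The 12 calls of other pathway genes were kept in 209 of 311 refits (Elovl6 was absent once dim genes were left out), run as alternatives chosen after seeing the data, and 102 did not pass, with no change of sign. Of the 12, 9 were lost at an adjusted p under 0.01, 8 each with the cardiac and the adipose covariate, and 7 each without sham replicate 3, SEW replicate 1 or BD/SEW replicate 2. Scarb1 was also lost with the mean of its probe sets. For 6 pathway genes named without a call, fits leaving out each array were also added after seeing the data.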
